A study of Saccharomyces cerevisiae with 15 samples.

Results

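Ribosome footprints of glucose-starved budding yeast were compared between libraries made with cycloheximide and a library made without it. The 4 libraries were picked by their labels from 15 in the series: 3 -GLU footprint libraries made with the drug and the 1 -GLU no-drug library whose title does not name a fast harvest. The question was whether the no-drug library lies outside the spread of the 3 drug libraries, gene by gene and by function. With 1 library on one side, the drug cannot be told apart from anything else particular to that library, which was also deposited in a separate table.

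The study followed translation in Saccharomyces cerevisiae as cells adapt to loss of glucose. All libraries are titled WT, for wild type. They came from strain YWG25 of the Sigma1278b background, a background that can grow as filaments. The cells were taken in mid-exponential growth in YPD (a rich glucose medium) at 30 °C, and the starved cells then lost glucose. The drug libraries were made from cells given 100 µg/ml cycloheximide and collected by centrifugation. The same drug wording also stands on the no-drug library, but its own description says that the drug was left out throughout, and that statement was followed here. Only the fast-harvest libraries are described as filtered, frozen and cryomilled. How long the cells were starved is not given in the sources used here, and nothing says whether libraries of a group came from separate cultures, so the spread between them may be partly technical.

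Ribosome profiling sequences the short pieces of mRNA that ribosomes shield from nuclease, so the reads on a coding region count the ribosomes on it. Cycloheximide binds the ribosome and stops it from moving along the mRNA, and it is often added before harvest to hold ribosomes where they are. Yeast that lose glucose are known to cut back translation of ribosomal protein mRNAs and to make the enzymes of gluconeogenesis and of respiration.

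The no-drug library held 1610986 counts, and the drug libraries held 7921427, 2462250 and 2391712. Levels are given as CPM, the counts of a gene relative to the library's total, after scaling of the 4 libraries together, always in the order drug 1, drug 2, drug 3 and then no drug. Of 5703 genes, 5338 had enough counts to be tested. The glucose-repressed genes FBP1 and PCK1, which encode the key enzymes of gluconeogenesis, stood at 2921 and 12878 CPM in the no-drug library on a scale shared by all 9 footprint libraries, and at no more than 0.486 and 2.24 CPM in any library from cells with glucose, so its starved label holds.

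Over all genes, the no-drug library was no farther from drug libraries 1 and 2 than drug library 3 was. The median absolute log2 difference per gene was 0.49 from no drug to drug 1, 0.50 to drug 2 and 0.82 to drug 3. Among the drug libraries it was 0.26 between 1 and 2, 0.59 between 1 and 3, and 0.56 between 2 and 3. Spearman correlations over the 5338 genes, given as a description, were 0.891, 0.895 and 0.761 for no drug against drug 1, 2 and 3, and 0.961, 0.827 and 0.850 within the drug libraries. Drug library 3 thus stood farthest from the other 3. Its counted region was also 26 nucleotides longer per gene than in every other footprint library.

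No gene passed edgeR's quasi-likelihood test with Benjamini-Hochberg adjustment in the 3-against-1 comparison: 0 were higher (0%) and 0 lower (0%), and the lowest adjusted p was 0.233. At an unadjusted p under 0.05 the same test gave 63 genes higher (1.18% of those tested) and 563 lower (10.5%) without the drug. Without drug library 3, edgeR called 48 genes higher (0.91%) and 532 lower (10.1%), while leaving out drug library 1 or 2 left 0 in each direction. DESeq2 called 6 higher (0.112%) and 182 lower (3.41%). A fit of all 9 footprint libraries, which also takes the spread of the 3 glucose-fed drug libraries, called 12 higher (0.225%) and 194 lower (3.63%). An exact permutation of 3 against 1 has too few arrangements to reach a p of 0.05, so single genes are described here by where they lie. Footprint counts alone separate neither mRNA level from ribosomes per mRNA, nor fewer cells from less RNA per cell.

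By position, 1723 genes (32.3%) lay above all 3 drug libraries, 1757 (32.9%) below and 1858 (34.8%) inside their range. The range of only 3 libraries is narrow, so a further drug library would also fall outside it for many genes. The exact 95% Poisson interval of the no-drug count covers counting error only, and the counting error of the drug libraries was not included. This interval cleared the whole drug range upwards for 1078 genes (20.2%) and downwards for 1059 (19.8%). Scaling by total counts alone, which moved the median of all genes from 0.03 to -0.10 on the log2 scale, gave 767 and 1254. Large gaps were mostly downward: among genes clear of counting error, 559 (10.5%) stood at least 2-fold below the nearest drug library and 30 (0.562%) at least 2-fold above it. Just past the 2-fold line were SBH1 and TLD1, with gaps of -1.003 and -1.001 on the log2 scale, and just short of it were ARC15 and NAT3, at -0.999 and -0.995.

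Which genes stood low without the drug followed the length of their coding region. Genes with under 300 counted nucleotides had a median log2 difference, no drug minus the mean of the drug libraries, of -1.81, or 3.51-fold lower (235 genes). The median was -1.04 at 300 to 600 nucleotides (706 genes), -0.42 at 600 to 1000 (1119 genes) and 0.07 at 1000 to 1500 (1208 genes). It was 0.34 at 1500 to 2000 (846 genes), 0.48 at 2000 to 3000 (772 genes) and 0.65 from 3000 upwards (452 genes). Short genes were thus low and long genes high, in steps, across the whole range of lengths.

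In every bin the median of each drug library lay nearer to the drug mean than that of the no-drug library. The drug libraries still differed among the shortest genes. Those genes took 5.04%, 6.71% and 10.8% of the counts in drug libraries 1, 2 and 3, and 4.25% without the drug. Against their own mean, drug library 1 went from -0.18 in the shortest bin to 0.11 in the longest, drug library 2 from -0.21 to 0.03, and drug library 3 the other way, from 0.39 to -0.15. The no-drug medians lay outside all 3 in every bin, least clearly at 1000 to 1500 nucleotides, where the drug libraries lay at 0.04, 0.02 and -0.02. Of the shortest genes 67.7% lay below the drug range beyond counting error and 1.70% above it; of the longest, 1.77% lay below and 63.1% above. The rank correlation of the difference with length was 0.653 over 5338 genes, against 0.177, 0.170 and -0.219 for each drug library against the other 2. Leaving out drug library 1, 2 or 3 gave -1.92, -1.90 or -1.65 in the shortest bin and 0.69, 0.64 or 0.54 in the longest.

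**Figure D1:**
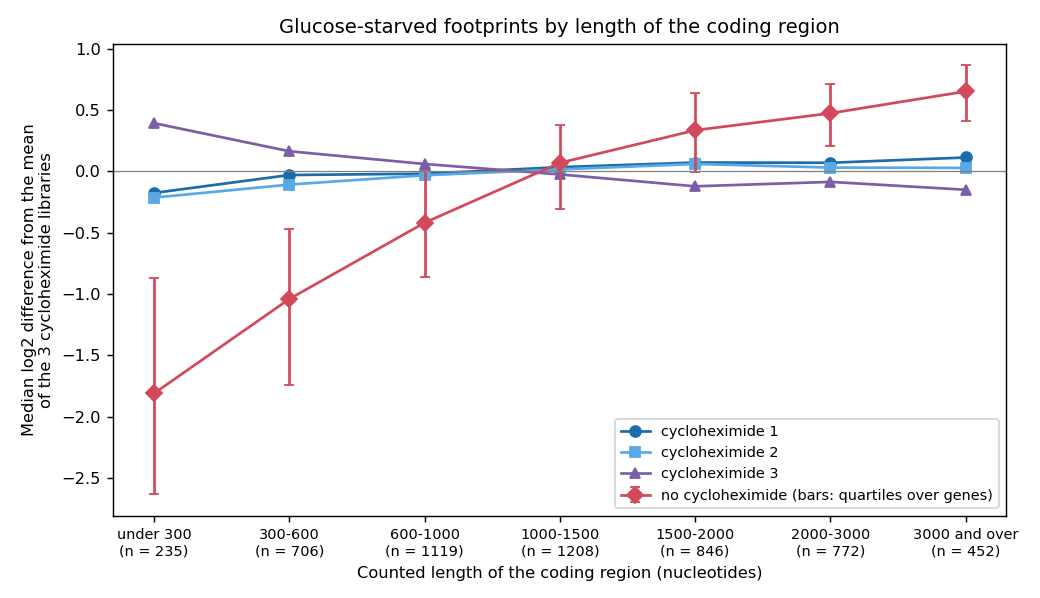
Median log2 difference of each glucose-starved footprint library from the mean of the 3 cycloheximide libraries (vertical axis), in 7 bins of counted coding length in nucleotides (horizontal axis); bars on the no-drug points span the quartiles over genes. The no-drug library runs from -1.81 in the shortest bin to 0.65 in the longest, while the drug libraries stay between -0.21 and 0.39.

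Of the 559 genes at least 2-fold below, 372 (66.5%) had under 600 counted nucleotides, compared with 17.6% of all genes tested, and 35 had 1500 or more. Of the 30 genes at least 2-fold above, 15 had 1500 or more and 3 had under 600. The 194 genes called lower in the 9-library fit included 152 (78.4%) under 600 nucleotides. The trend with length was then taken out of every starved library, an adjustment chosen after seeing the data. With it removed, 690 genes (12.9%) still lay above and 543 (10.2%) below the drug range beyond counting error. The 9-library fit, in which the libraries from cells with glucose were left unadjusted, then called 1 gene higher (0.0187%) and 0 lower (0%).

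Genes with abundant mRNA were also short. In 5 equal groups by level per length in the starved RNA libraries, the 1068 genes with the highest mRNA level had a median of 732 counted nucleotides and a median log2 difference of -0.25, and the 1068 with the lowest had 1781 nucleotides and 0.13. With the length trend removed the order turned, to 0.12 in the highest group and -0.18 in the lowest.

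The starved fast-harvest library, also made without the drug, is set beside this on the scale of all 9 footprint libraries. In the shortest bin its median difference from the same 3 drug libraries was -0.53, against -1.79 for the no-drug library harvested without that method. In the longest bin the values were 0.13 and 0.67. Both comparisons share the drug libraries. The fast-harvest library from cells with glucose stood at -0.14 and 0.16 in the shortest and longest bins against the glucose-fed drug libraries.

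Several gene groups with short members were low without the drug. The cytosolic ribosomal proteins, most of them short, had a median log2 difference of -1.25 over 138 genes, compared with 0.03 over all genes tested. Their median level was 6.37, 6.19 and 6.22 log2 CPM in the drug libraries and 5.02 without the drug, below all 3. Beyond counting error 86 of the 138 (62.3%) lay below the drug range and 1 above, against 19.8% and 20.2% of all genes, the shares against which the counts of every list below are to be read. RPS28B, a small-subunit protein, stood at 88.9, 46.9 and 61.4 CPM with the drug and 5.32 without, and RPL38, a large-subunit protein, at 139, 173 and 232 against 23.9. RPL3, among the longest ribosomal proteins, stood at 450, 358 and 279 CPM with the drug and 530 without, above all 3. RPS3 lay inside the range, at 307, 215 and 108 CPM against 148.

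Within the ribosomal proteins the 111 genes under 600 nucleotides had a median of -1.37 and the 27 longer ones -0.45. The small and large subunits were alike in size of difference, at -1.25 over 57 genes and -1.23 over 81. With the length trend removed the median of all 138 was -0.09. Beyond counting error 21 of the 138 then lay above the drug range and 20 below. The matching shares of all genes, with the trend removed, were 12.9% and 10.2%. Many of these genes come in pairs with near-identical sequence, for which the counting could split reads: 95 had such a copy, with a median of -1.11, and 43 had none, with a median of -1.39. RPL35B, 1 of a pair with RPL35A, was at 7.53, 5.21 and 7.57 CPM with the drug and had 0 counts without it. RPL41A and RPL41B, which encode the shortest ribosomal protein, had 54 counted nucleotides and 0 counts in every library but drug 3, where they stood at 216 and 226 CPM, so they carry no comparison.

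Ribosome biogenesis factors, which process ribosomal RNA and assemble subunits, lay on the other side. Their median was 0.68 over 96 genes, with 30 above the drug range beyond counting error (31.2%) and 3 below (3.12%), against 20.2% and 19.8% of all genes; without drug library 3 the median was 0.39. The level of the list was 5.20, 4.87 and 4.12 log2 CPM with the drug and 5.48 without, so drug library 3 was the low point and drug library 1 close behind the no-drug value. RRP5, needed for processing of both subunits' RNA, stood at 93.4, 75.3 and 23.9 CPM against 165. RPA12, a short subunit of RNA polymerase I, went the other way, at 11.7, 9.61 and 22.3 CPM against 1.99. After removal of the length trend the list kept a median of 0.44. Beyond counting error 12 of the 96 then lay above the drug range and 1 below. The share above was thus near that of all genes with the trend removed, 12.9%, while 10.2% of all genes lay below.

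Translation factors divided by size. The 31 initiation factors had a median of 0.48, with 13 above and 6 below the drug range beyond counting error; the 3 under 600 nucleotides had a median of -1.01 and the 16 of 1500 or more 0.70. The eIF3 subunit NIP1 stood at 125, 91.7 and 75.7 CPM with the drug and 217 without, above all 3, and HCR1, a short eIF3-associated factor, at 141, 104 and 146 against 55.1, below all 3. The poly(A)-binding protein PAB1 stood at 576, 437 and 208 CPM against 720. Of 17 elongation and termination factors 2 lay above and 0 below, and the elongation factor YEF3 was inside the range at 293, 187 and 61.8 CPM against 283. The 21 aminoacyl-tRNA synthetases, which charge tRNAs, had a median of 0.48, or 0.16 without drug library 3, with 4 above (19%, near the share of all genes) and 0 below. The 22 factors of mRNA decay and translational repression had a median of 0.52, with 13 above and 1, LSM1 (495 nucleotides), below.

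**Figure D2:**
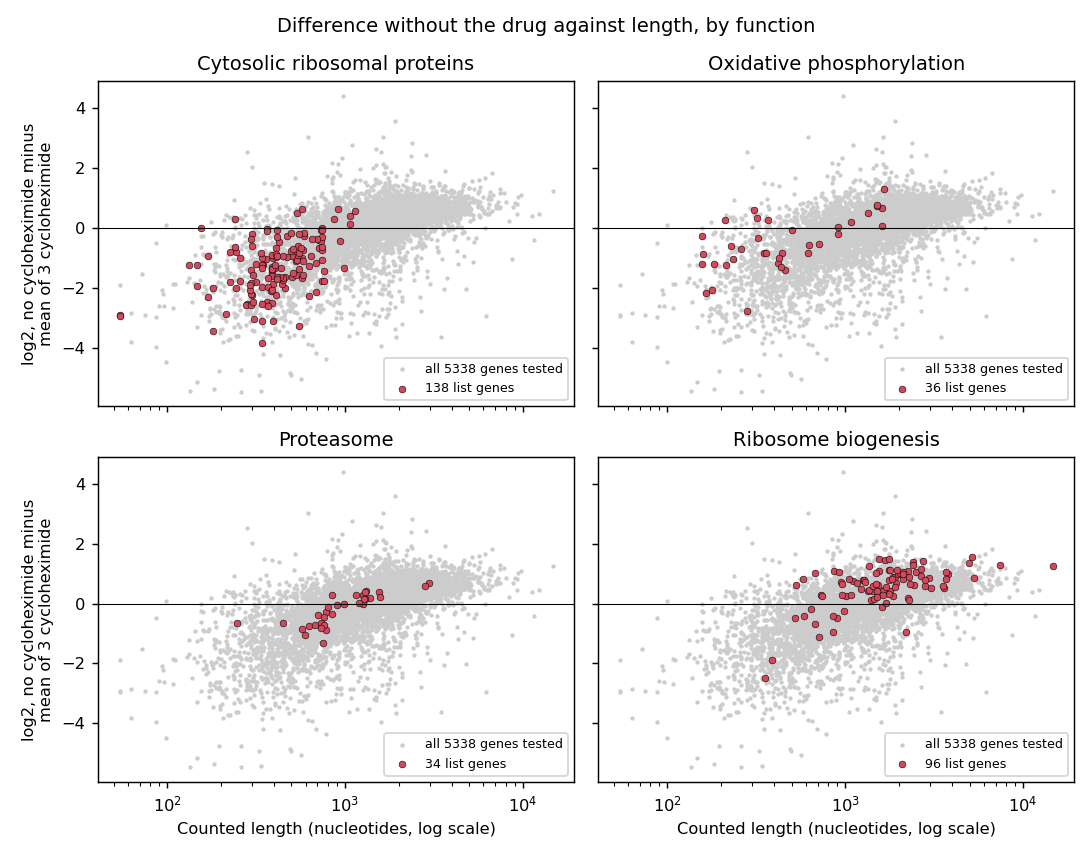
Log2 difference between the no-drug library and the mean of the 3 cycloheximide libraries (vertical axis) against counted coding length in nucleotides on a log scale (horizontal axis), with all 5338 genes in grey and the members of 4 lists in red. In each list the short members tend to lie below the long ones, with exceptions; the 138 ribosomal protein genes sit at the short end and the 96 ribosome biogenesis genes mostly at the long end.

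Most small subunits of the respiratory chain were low without the drug. Over 36 nuclear genes of oxidative phosphorylation the median was -0.59, and the list stood at 10.59, 10.53 and 10.64 log2 CPM with the drug and 9.88 without. Beyond counting error 20 of the 36 lay below and 7 above. ATP17, a small ATP synthase subunit with 282 counted nucleotides, stood at 1280, 1792 and 1863 CPM with the drug and 238 without. ATP1, the large alpha subunit of the same enzyme, with 1614 nucleotides, stood at 6587, 5579 and 2076 CPM against 6728. Of all 941 genes tested under 600 nucleotides, 602 lay below and 16 above beyond counting error. Of the 24 in this list, 17 lay below and 2 above, with a median of -0.86. The 2 above were COX13, at 1485, 1503 and 1619 CPM against 1830, and the cytochrome c gene CYC1, at 2925, 2993 and 1221 against 3343. The 5 genes of 1500 nucleotides or more had a median of 0.72, and the list median was 0.42 with the length trend removed. Beyond counting error 21 of the 36 then lay above the drug range and 5 below, against 12.9% and 10.2% of all genes.

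Subunits of succinate dehydrogenase, which feeds electrons from the tricarboxylic acid cycle into that chain, were ordered in the same way. SDH4 (522 nucleotides) stood at 2366, 1858 and 1878 CPM with the drug and 664 without. SDH3 (573 nucleotides) stood at 2189, 2096 and 1783 against 1248, and SDH2 (777 nucleotides) at 4154, 3504 and 1911 against 3127. SDH1 (1899 nucleotides) stood at 2980, 2607 and 741 CPM against 3155. The short SDH4 and SDH3 were thus below all 3 drug libraries, SDH2 inside their range and SDH1 above it. The cycle as a whole had a median of 0.21 over 19 enzymes, or -0.12 without drug library 3, with 4 above and 2 below beyond counting error.

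Other complexes whose subunits differ in size gave the same order. The 14 subunits of the 20S proteasome core (median 738 nucleotides) had a median of -0.71 with 13 below the drug range, while the 19 subunits of the 19S cap (median 1266 nucleotides), which binds and unfolds substrates, had 0.17 with 7 above and 1 below. The rank correlation with length within the 34 proteasome genes, which include the transcription factor RPN4, was 0.872. PRE9, of the core, stood at 361, 339 and 681 CPM against 175, and RPN1, of the cap, at 670, 462 and 622 against 927. A short proton-channel subunit of the vacuolar ATPase, VMA11 (471 nucleotides), stood at 161, 143 and 421 CPM with the drug and 18.6 without. Its log2 difference was -3.48, and -2.52 with the length trend removed. The shorter VMA10 (323 nucleotides) and VMA7 (333 nucleotides) were less low, at -0.91 and -1.58. Over 15 proton-pump genes the 4 under 600 nucleotides had a median of -2.21 and the 6 of 1500 or more 0.51. The median of the 15 was -0.22, and -0.27 with the trend removed, with 4 then below and 1 above beyond counting error. Mitochondrial ribosomal proteins had -1.12 over 31 genes under 600 nucleotides and 0.15 over 39 of 600 to 1500; MRPL33 stood at 99.1, 102 and 112 CPM against 13.95.

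**Figure D3:**
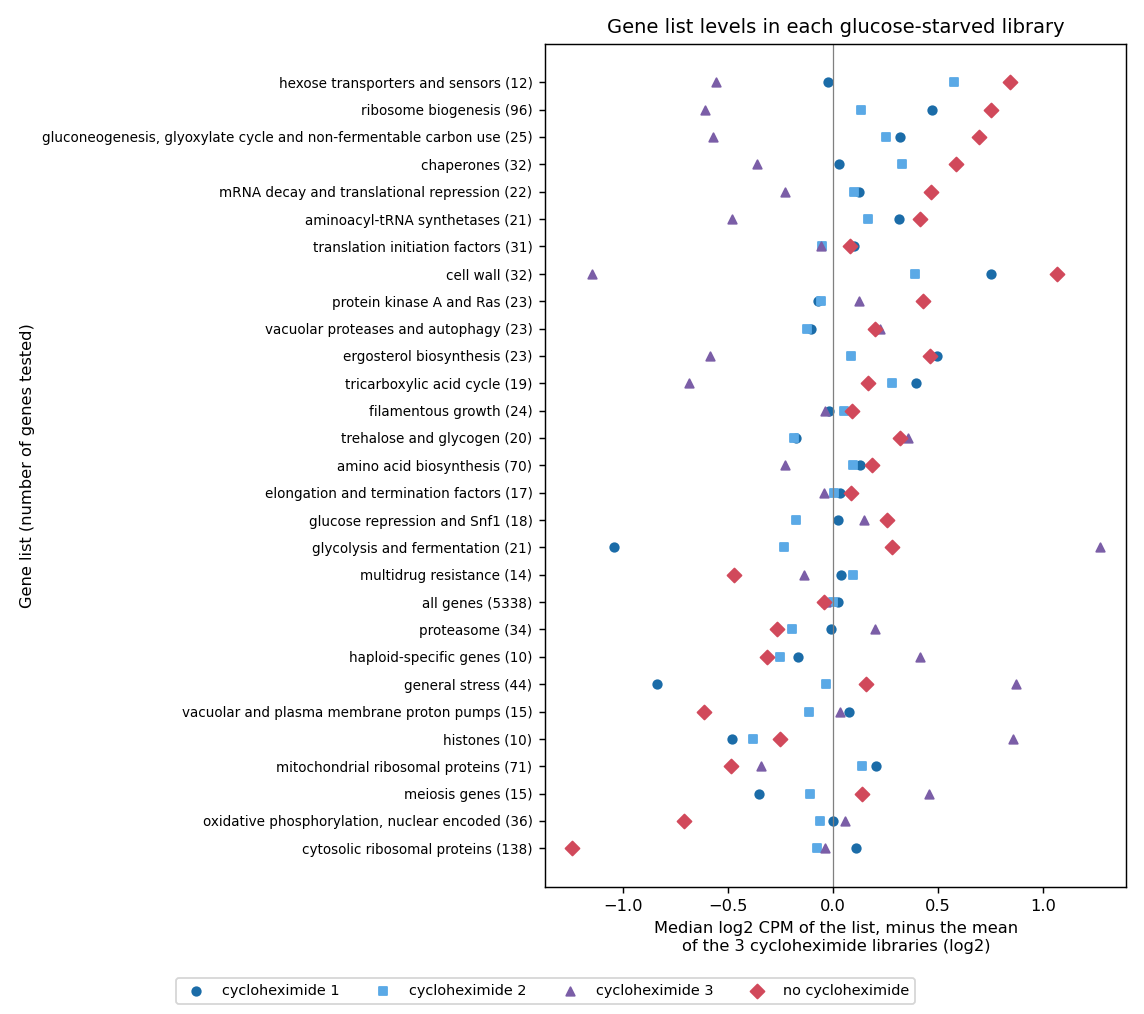
Median log2 CPM of each gene list in each glucose-starved library, less the mean of the 3 cycloheximide libraries (horizontal axis), for the 28 lists with at least 10 genes tested and for all genes (vertical axis, ordered by the median difference per gene). The no-drug level lies below the drug libraries in 7 lists, inside them in 9 and above them in 12. As for single genes, a further drug library could also lie outside the range of 3.

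Carbon use showed a wide spread among the drug libraries themselves. PCK1 stood at 25762, 10157 and 144 CPM with the drug and 14746 without, and FBP1 at 5119, 3538 and 242 against 3345. ICL1, of the glyoxylate cycle, stood at 16514, 6228 and 1490 CPM against 9259. All 3 were inside the drug range, in which drug library 3 was the low point. The list of 25 gluconeogenic, glyoxylate and non-fermentable carbon genes had a median of 0.64, with 7 above and 0 below beyond counting error, but 0.03 without drug library 3. The lactate permease JEN1 lay above all 3, at 1889, 3429 and 1758 CPM against 4935.

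Hexose transporters with the sensors SNF3 and RGT2 were the list with the highest median, 1.21 over 12 genes, or 0.74 without drug library 3. Beyond counting error 7 lay above, SNF3 among them, and 0 below. HXT7, HXT8 and HXT13 had no more than 8 counts without the drug. HXT2, a high-affinity glucose transporter, stood at 64.4, 178 and 29.1 CPM with the drug and 410 without, and HXT4 at 246, 416 and 82.1 against 731. HXT6, whose reads could be shared with the near-identical HXT7, stood at 1368, 3709 and 391 CPM against 5198. In all 3 genes drug library 2 was nearest to the no-drug library and drug library 3 farthest. Removing the length trend left the list at a median of 0.94, with 4 above and 0 below beyond counting error. Glycolysis and fermentation had a median of 0.13 over 21 genes, and between -0.38 and 0.59 with each drug library left out, with 4 above and 0 below, while the level of that list ranged widely with the drug. TDH3, a glycolytic dehydrogenase with a near-identical copy in TDH2, lay inside the range at 602, 739 and 3567 CPM against 1138.

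The heat-shock genes with the largest differences separated the libraries in another way. SSA4, a stress-induced Hsp70, stood at 80.6, 1385 and 65.0 CPM with the drug and 2339 without. HSP26, a small heat-shock protein, stood at 147, 1008 and 83.7 CPM against 1916, and HSP30, a stress protein of the plasma membrane, at 44.7, 866 and 6.38 against 1384. The no-drug library and drug library 2 were high, and drug libraries 1 and 3 low. On the 9-library scale the no-drug values for SSA4, HSP26 and HSP30 were 2042, 1673 and 1209 CPM, and those of the starved fast-harvest library 204, 224 and 133 CPM. The log2 differences of 3.59, 3.05 and 4.42 did not pass edgeR's quasi-likelihood test, with unadjusted p of 0.233, 0.143 and 0.329.

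Other chaperones were more uniform with the drug, though some still spread widely, such as KAR2 at 442, 352 and 67.0 CPM against 476. HSP82, an Hsp90 with a near-identical copy in HSC82, stood at 696, 955 and 634 CPM with the drug and 2049 without, and HSP104, the disaggregase, at 1897, 2797 and 2382 against 5184. Over 32 chaperones the median was 0.60, with 18 above and 4 below beyond counting error, and 0.22 without drug library 3. The 4 below were HSP10, HCH1, HSP31 and SBA1, all under 700 nucleotides; HSP10, the mitochondrial co-chaperonin, stood at 1071, 832 and 1068 CPM against 348. General stress targets had a median of -0.18 over 44 genes, with 6 above and 6 below (13.6% each, under the shares of all genes). That median turned to 0.37 without drug library 3 and to 0.16 with the length trend removed. HSP12 lay inside the range, at 933, 2347 and 11743 CPM against 3996.

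**Figure D4:**
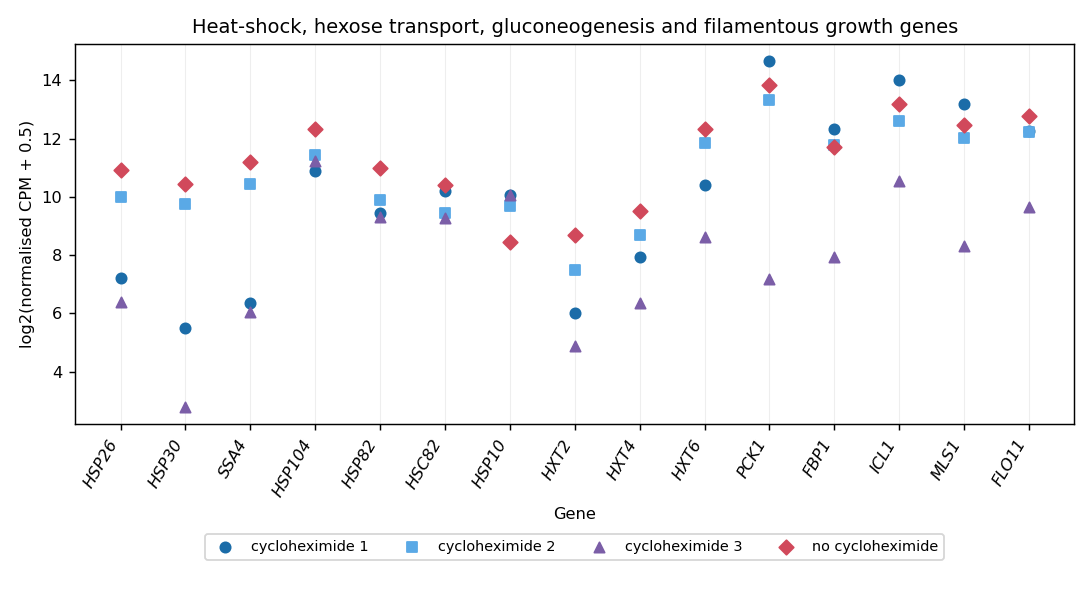
Log2 of normalised CPM plus 0.5 (vertical axis) of 15 heat-shock, hexose transport, carbon and filamentous growth genes (horizontal axis) in the 3 cycloheximide libraries and the no-drug library. For HSP26, HSP30 and SSA4 the no-drug library and drug library 2 lie far above drug libraries 1 and 3; for PCK1, FBP1 and ICL1 drug library 3 is the low point and the no-drug library lies inside the range.

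Of 24 genes of filamentous growth, for which the strain is used, 7 lay above all 3 drug libraries and 6 below. Beyond counting error 4 lay above (16.7%) and 1 below (4.17%), and the median of 0.20 turned to -0.017 without drug library 3. FLO11, the cell-surface flocculin of filamentous growth, stood at 4907, 4787 and 802 CPM with the drug and 6994 without, above all 3; on the 9-library scale it was 6108 in the no-drug library and 1262 in the starved fast-harvest library. Its activator FLO8 stood at 36.8, 44.9 and 42.3 CPM against 47.8. The protein kinase A catalytic subunit TPK3 lay inside the drug range, at 31.9 CPM without the drug. The catalytic subunit TPK2, at 172 against a lowest drug value of 186, was within counting error of the range. The regulatory subunit BCY1 lay above it at 1012, against a highest drug value of 885. PDR5, the pump that carries many drugs out of the cell, stood at 105, 126 and 46.6 CPM with cycloheximide and 193 without it. Over 14 multidrug resistance genes the median was 0.07, with 6 above and 5 below; it was 0.18 without drug library 3, -0.056 when scaled by total counts and -0.27 with the length trend removed. The level of that list, 5.93, 5.99 and 5.76 log2 CPM with the drug and 5.43 without, lay below all 3.

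Of the 12 genes with the widest gap below the drug libraries, 8 had under 600 counted nucleotides. MCO6 (YJL127C-B), a small mitochondrial protein, stood at 97.3, 96.1 and 138 CPM with the drug and 1.99 without (3 counts; 95% interval 0.411 to 5.83 CPM). BOL2 (YGL220W), which takes part in iron regulation, stood at 103, 66.1 and 73.3 CPM against 1.33, and BNS1 at 65.2, 61.7 and 61.0 against 3.99. DAD3 (YBR233W-A), a subunit of the DASH ring at kinetochores, stood at 24.4, 16.8 and 25.1 CPM and had 0 counts without the drug, at least 11.1-fold lower than the drug mean against a floor of 3 counts in that library. For each of these genes the drug values lay within 2-fold of each other, far from the no-drug value.

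DMO1 was high with the drug, at 1505, 3489 and 1119 CPM, and stood at 58.5 without. PMP1, a proteolipid that regulates the plasma membrane proton pump and has a near-identical copy in PMP2, stood at 573, 304 and 226 CPM against 14.6. SDC25 (YLL016W), a Ras exchange factor, was an exception in length with 3736 nucleotides, at 27.9, 52.9 and 47.8 CPM against 1.33; its row is identical to that of YLL017W, so the pair is a single measurement. ATF2, an alcohol acetyltransferase with 1584 nucleotides, stood at 8.92, 6.01 and 7.18 CPM and had 0 counts without the drug, at least 3.70-fold lower. In all, 51 tested genes had 0 counts without the drug; 21 of them averaged at least 5 CPM with it, and 15 of those were under 600 nucleotides. The fast-harvest library is again set beside these on the 9-library scale: MCO6 stood at 17.5 CPM there against 1.74 in the no-drug library, BOL2 at 20.5 against 1.16, and DMO1 at 72.3 against 51.1.

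The widest gaps above were held by genes of varied roles. MDM20 (YOL076W), a subunit of the N-terminal acetyltransferase NatB, stood at 41.1, 62.5 and 41.1 CPM with the drug and 340 without, or 7.04 times the drug mean. RAD16 (YBR114W), of nucleotide excision repair, stood at 52.6, 104 and 81.7 CPM against 408. CNA1 (YLR433C), a catalytic subunit of calcineurin, stood at 628, 2057 and 672 CPM against 7815, the highest level in this set. MSH1, which acts on mitochondrial DNA, stood at 16.8, 28.8 and 13.2 CPM against 103, and the osmosensor SLN1 at 31.8, 20.02 and 18.7 against 87.7. In each of these the no-drug value lay above all 3 drug values; for CNA1, drug library 2 also stood well above drug libraries 1 and 3.

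MDM20, RAD16 and CNA1 were named for their wide gaps in these same 4 libraries, so a test on those libraries gives them no separate support. None of these genes passed edgeR's quasi-likelihood test, 3 against 1, after adjustment. With the trend of length removed their log2 differences were 2.40, 1.98 and 2.76, so they also stood above genes of their own length. On the 9-library scale the starved fast-harvest library stood at 33.9 CPM for MDM20, 28.6 for RAD16 and 382 for CNA1, against 297, 356 and 6825 in the no-drug library. The fast-harvest value of MDM20 thus lay close to the lowest drug value on that scale, 34.8 CPM, and that of RAD16 below its lowest, 45.4 CPM.

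**Figure D5:**
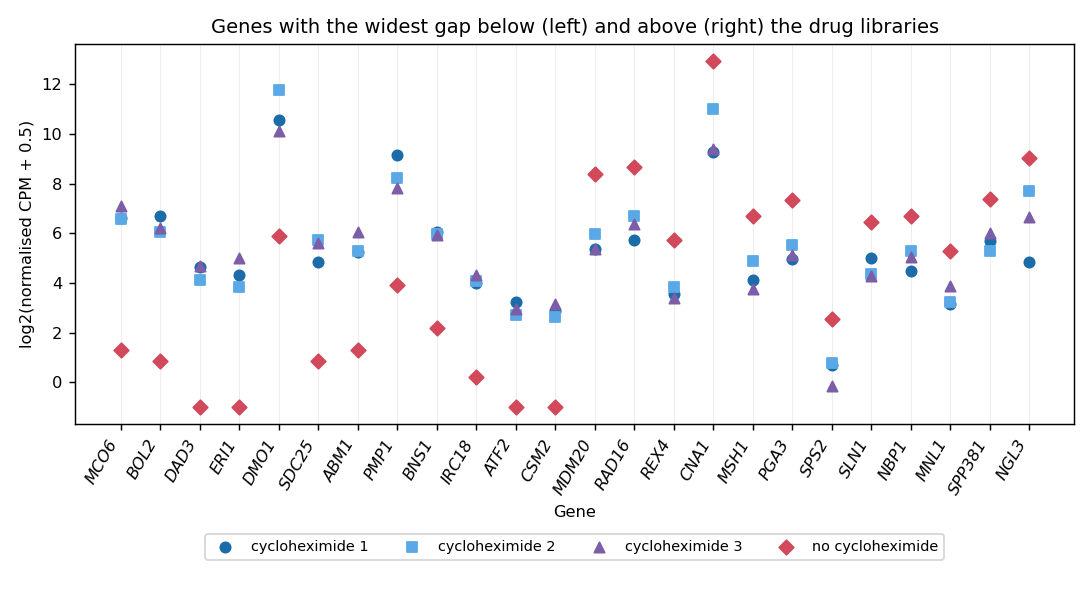
Log2 of normalised CPM plus 0.5 (vertical axis) in the 4 starved libraries for the 12 genes with the widest gap below (left) and the 12 with the widest gap above (right) the cycloheximide libraries (horizontal axis). Genes at 0 counts without the drug, such as DAD3, sit at -1 by construction; the gaps below are wider than the gaps above.

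Mating-type and meiosis genes mark other cell states of yeast. The meiosis list was low in all 4 libraries and stood at 2.05, 2.29 and 2.86 log2 CPM with the drug and 2.54 without, inside the drug range. The a-cell markers had a median difference of -0.41 over 7 genes; the short pheromone gene MFA2 stood at 31.3, 58.5 and 851 CPM against 27.2, so that drug library 3 stood apart from the other 3. The a-cell transporter gene STE6 stood at 98.2, 109 and 41.9 CPM against 129. AGA2 stood at 11.3, 9.61 and 9.97 CPM against 4.65, and ASG7 at 4.14, 5.21 and 2.39 against 3.99. MFA1 stood at 7.785, 7.21 and 25.9 CPM against 7.97. BAR1 stood at 23.7, 20.02 and 10.8 CPM against 28.6, and STE2 at 28.6, 31.2 and 49.4 against 26.6. Only 2 of 4 alpha-cell genes were tested, and their levels with the drug lay among those of the a-cell markers. SAG1 stood at 9.17, 11.2 and 27.9 CPM against 0.664, which is 1 count. STE3 stood at 24.5, 22.4 and 16.7 against 13.95, within counting error of the range.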

How the data were processed

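The authors deposited counts of footprint reads per gene, as whole numbers, per the file headers and values; libraries were cut with RNase I and taken from monosomes, per the labels' protocols. No aligner, build, annotation or strand setting is named in the labels or headers used here. The 3 drug libraries and the no-drug library came from separate tables. Deposited RPKM values were used only to work out the counted region: it was 24 nucleotides shorter than the coding region in every footprint library except drug library 3, where it was 2 nucleotides longer (matched within 0.5 nucleotides). Symbols came from RefSeq, which matched 5698 of 5703 genes; 1 gene that was not whole in the RNA columns, deposited as an expected count, was left out, and 9 other RNA columns were not used.

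Counts were scaled by TMM and tested with edgeR 4.0.16 (glmQLFit, glmQLFTest, filterByExpr with a minimum count of 10, Benjamini-Hochberg threshold 0.05) in R 4.3.3; 1 library has no spread of its own and was assumed to vary like the 3. Differences are log2(CPM + 0.5), no drug minus the mean of the 3 drug log2 values. Alternatives were DESeq2 1.42.0, other scalings and filters, all 9 footprint libraries, each drug library left out, and removal of the length trend. For the last, the median difference from the drug mean in each of 20 length bins was taken from each starved library. Methods were tested on simulated data. With 1610986 counts, 3 counts in the no-drug library come to 1.86 CPM before scaling. Intervals cover the counting error of the no-drug library only, and the drug range was taken without its own counting error.

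The libraries compared, the 30 gene lists and the named genes were chosen with earlier results of these data known. Named were, in each direction, the 12 genes with the widest gap to the nearest drug library among genes called or, failing that, clear of counting error; the highest and lowest member of each list; and a set fixed for their roles. Other genes in the text were taken from the lists after their values were seen.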

Additional observations from a re-analysis of the deposited data

How the results depend on the processing

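No paired analysis was possible because the no-drug library shares no replicate number with a drug library in the labels; its number only follows the order of deposit. The call counts moved most: edgeR's 0 higher and 0 lower became 48 and 532 without drug library 3 (a range of 0 to 48 and 0 to 532 over the 3 libraries left out), 6 and 182 with DESeq2, and 12 and 194 with all 9 footprint libraries, or 1 and 0 there with the length trend removed. Outside the drug range beyond counting error, 1078 and 1059 genes became 690 and 543 with the length trend removed and 30 and 559 when a gap of at least 2-fold was asked. Removing that trend reversed the list medians of mitochondrial ribosomal proteins (to 0.29), oxidative phosphorylation (0.42), filamentous growth (-0.055), protein kinase A and Ras (-0.10), glucose repression and Snf1 (-0.066), the proteasome (0.069), multidrug resistance (-0.27), a-cell markers (0.44) and general stress (0.16), and the difference of LSM1 (0.11). It moved cytosolic ribosomal proteins to -0.093, initiation factors to 0.15, elongation and termination factors to 0.055, trehalose and glycogen across 0 to -0.24, histones across 0 to 1.10, vacuolar proteases and autophagy to 0.091 and mRNA decay to 0.28. Scaling by total counts reversed multidrug resistance (-0.056) and glycolysis (-0.003) and moved cytosolic ribosomal proteins to -1.37, initiation factors to 0.35, elongation and termination factors to 0.019, oxidative phosphorylation to -0.72, filamentous growth to 0.073, protein kinase A and Ras to 0.28 and proton pumps to -0.35. With no filter multidrug resistance came to 0.31 and alpha-cell markers to -0.61; with at least 50 counts elongation and termination factors came to 0.079, oxidative phosphorylation to -0.68, multidrug resistance to 0.23 and proton pumps to -0.52. Leaving out each drug library in turn gave ranges of 0.24 to 0.57 for initiation factors, 0.088 to 0.18 for elongation and termination factors, 0.033 to 0.79 for gluconeogenesis and related carbon use, -0.68 to -0.51 for oxidative phosphorylation, 0.028 to 0.51 for trehalose and glycogen, 0.22 to 0.81 for chaperones, -0.017 to 0.24 for filamentous growth, 0.21 to 0.38 for protein kinase A and Ras, -0.26 to 0.76 for the cell wall, -0.42 to -0.18 for proton pumps, -0.65 to -0.21 for a-cell markers, -0.18 to 0.029 for haploid-specific genes, -0.53 to 0.37 for general stress, -0.51 to 0.25 for histones, -0.19 to 0.52 for ergosterol, -0.12 to 0.42 for the tricarboxylic acid cycle, -0.38 to 0.59 for glycolysis, 0.16 to 0.74 for aminoacyl-tRNA synthetases, 0.39 to 0.94 for ribosome biogenesis, -0.59 to -0.29 for mitochondrial ribosomal proteins, 0.74 to 1.495 for hexose transporters and 0.091 to 0.18 for multidrug resistance. Without drug library 3 the sign changed for 7 lists: filamentous growth, cell wall, haploid-specific genes, general stress, histones, ergosterol and the tricarboxylic acid cycle; glycolysis changed sign without drug library 1 or 2. Apart from the length trend, of which the effect follows from its construction, the cause was not tested.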
